A study of Mus musculus with 2 samples.

Results

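Chemokines are small secreted proteins that guide leukocytes along their gradients, and 6 genes that encode them were followed in T cells from the islets of prediabetic mice: *Ccl3*, *Ccl4*, *Ccl5*, *Xcl1*, *Cxcl10* and *Ccl1*. They were picked by symbol, as chemokine genes of T cells, from the 27998 genes of the count matrices, which hold 38 chemokine ligand genes in all. The cells came from the islets of NOD.*Foxp3*-*EGFP* mice, called wild type here, and of NOD.*Tnfrsf9*-/-.*Foxp3*-*EGFP* mice, called knockout, which lack the gene for CD137 in every cell and not in 1 lineage alone. Both strains carry the reporter that marks *Foxp3*+ cells on the diabetes-prone NOD background. Each genotype is 1 library, made from the pooled islets of 6 females of 9 to 10 weeks, in which CD8 T cells and *Foxp3*+ regulatory T cells (Tregs) were sorted and run together, so there is no replicate and no test. Every interval below is at 95% and covers counting error only, not the spread between mice or libraries. Intervals of levels and ratios treat each UMI as independent and also leave out the spread between cells.

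*Ccl3*, *Ccl4* and *Ccl5* are secreted by activated CD8 T cells and NK cells. *Ccl3* and *Ccl4* are switched on within hours of T cell receptor (TCR) signaling, whereas differentiated effector and memory CD8 T cells hold *Ccl5* transcripts without a new stimulus. *Xcl1* draws cross-presenting dendritic cells through XCR1, *Cxcl10* is an interferon-induced ligand of CXCR3, and *Ccl1* is a ligand of CCR8, a receptor found on tissue Tregs. In the islets of NOD mice, chemokines are known to take part in the recruitment of the T cells that surround and enter them.

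In GRCm38, 4 of the 6 genes lie on chromosome 11: *Ccl1* (ENSMUSG00000020702, 82176657 to 82305690, minus strand), *Ccl5* (ENSMUSG00000035042, 83525778 to 83530518, minus strand), *Ccl3* (ENSMUSG00000000982, 83647844 to 83649355, minus strand) and *Ccl4* (ENSMUSG00000018930, 83662584 to 83664683, plus strand). *Ccl3* and *Ccl4* point away from each other with 13228 bases between them. *Xcl1* lies on chromosome 1 (ENSMUSG00000026573, 164931644 to 164935527, minus strand) and *Cxcl10* on chromosome 5 (ENSMUSG00000034855, 92346638 to 92348889, minus strand). The 250 bases before the transcription start are shown for *Ccl3* and *Cxcl10*, because *Ccl3* was higher in cells with genes of TCR signaling and *Cxcl10* in cells with interferon-induced genes, as described below. The sequences are those of RefSeq on GRCm38.p6, the C57BL/6J genome and not that of NOD, at chr11:83649379-83649628 and chr5:92348890-92349139, both minus strand, written 5′ to 3′ with motif matches in capitals.
Ccl3: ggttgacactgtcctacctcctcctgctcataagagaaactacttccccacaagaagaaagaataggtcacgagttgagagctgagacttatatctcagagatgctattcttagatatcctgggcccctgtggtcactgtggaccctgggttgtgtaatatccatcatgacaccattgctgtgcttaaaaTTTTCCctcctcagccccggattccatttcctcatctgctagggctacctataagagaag
Cxcl10: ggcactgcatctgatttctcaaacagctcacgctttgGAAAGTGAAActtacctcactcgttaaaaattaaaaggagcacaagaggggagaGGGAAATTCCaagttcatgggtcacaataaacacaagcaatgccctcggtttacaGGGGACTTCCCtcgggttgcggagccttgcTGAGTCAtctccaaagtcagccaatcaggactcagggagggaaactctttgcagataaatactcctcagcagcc
4 motifs were searched on both strands: the core of the interferon-stimulated response element (ISRE, GAAA and GAAA with any 2 bases between), the kappa B motif (GGG and CC with any 5 bases between), the AP-1 motif (TGA and TCA with any 1 base between) and an NFAT core (GGAAAA). In the *Ccl3* window the only match was the NFAT core on the opposite strand, 60 to 55 bases before the RefSeq start. That start lies upstream of the gene end given above, since the window begins at 83649379 and the gene ends at 83649355. The *Cxcl10* window held the ISRE core at 213 to 204 bases before the start, kappa B matches at 159 to 150 and, overlapping each other, at 104 to 95 and 103 to 94, and the AP-1 motif at 74 to 68. Of all 32851 windows of the same length, 2.98% held the ISRE core, 45.8% the kappa B motif, 6.75% the AP-1 motif and 20.4% the NFAT core. A match is a run of letters and not a measured binding site. 4 of the 6 genes had a promoter entry: the *Xcl1* window held none of the 4 motifs, and the *Ccl1* window held kappa B and NFAT core matches. In CD8 T cells *Xcl1* differed more than *Ccl3* between cells with and without genes of TCR signaling, as described below. *Ccl4* and *Ccl5* had no entry.

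After filtering, 2714 wild-type and 2915 knockout cells were kept, with medians of 5011 and 4903 UMIs (unique molecular identifiers, each counting 1 captured transcript). CD8-gated cells had at least 2 UMIs of *Cd8a* and *Cd8b1* and none of *Cd4* or *Foxp3*, which gave 891 wild-type and 1200 knockout cells (median depth 6076 and 5275 UMIs). Treg-gated cells had no *Cd8a* or *Cd8b1* UMI and at least 1 of *Cd4*, *Foxp3*, *Il2ra* or *Ikzf2*, which gave 1552 and 1444 cells (4302 and 4308), and 271 cells of each library fell in neither class. *Ikzf2* was found in 95.4% and 93.6% of the Treg-gated cells but *Foxp3* itself in only 13.2% and 19.5%, so that this class rests mostly on *Ikzf2* and *Cd4*. *Tnfrsf9* was lower in the knockout, at 32.0 against 106 CPM (counts per 1000000 UMIs of the class) in CD8-gated and 110.1 against 337 CPM in Treg-gated cells, and it was not at 0 although the gene is disrupted. 16 barcodes occurred in both libraries, and leaving those cells out moved no ratio of a chemokine by more than its interval. Doublets were removed only by the limit of 5000 genes and, in part, by the lineage gates. These gates left out 147 wild-type and 136 knockout cells with UMIs of both lineages. Of myeloid markers, *Csf1r*, *C1qa*, *C1qb*, *Lyz2* and *Itgam* were each found in at most 0.449% of either class, while *Cst3* was found in 51.5 to 68.8% and *Cd68* in 9.43% of wild-type and 3.75% of knockout CD8-gated cells. At least 2 genes of the B cell, endocrine, acinar or stromal lists were found in at most 1.80% of either class. Of the NK list, *Ncr1* and *Klrb1c* were found in at most 2 cells of a class and *Klra8* in at most 6. *Klra4* was found in 32 wild-type (3.59%) and 47 knockout CD8-gated cells (3.92%). *Tyrobp* reached 416 and 293 UMIs in 13 and 15 CD8-gated cells. A UMI of this list was found in 34 of 485 wild-type CD8-gated cells with *Ccl4* and 13 of 406 without. In the knockout it was 43 of 390 and 19 of 810. These shares were also higher with *Ccl3*, *Ccl5* or *Xcl1*, lower with *Cxcl10* and mixed for *Ccl1*. The part of NK cells alone in the CD8-gated levels was not tested.

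CD8-gated cells were the main source of *Ccl3*, *Ccl4*, *Ccl5* and *Xcl1*. Of the *Ccl5* UMIs of all kept cells, 90.4% (wild type) and 90.1% (knockout) lay in CD8-gated cells, and for *Xcl1* these shares were 91.0% and 91.3%. *Ccl5* was found in 82.4% of wild-type CD8-gated cells (79.7 to 84.8%) with a median of 65 UMIs per positive cell and up to 781. *Ccl4* was found in 54.4% (51.1 to 57.7%), with a median of 5 UMIs per positive cell. *Ccl3* was found in 35.7% (32.5 to 38.9%) and *Xcl1* in 35.2% (32.1 to 38.5%), with medians of 3 and 4 UMIs. *Cxcl10* was found in 7.30% and *Ccl1* in 0.449% of these cells, mostly as 1 UMI. The genes thus differed in how evenly they were spread over cells: 50% of the *Ccl5* UMIs lay in 124 of the 891 cells, 50% of the *Ccl4* UMIs in 44, of *Ccl3* in 33 and of *Xcl1* in 20, whereas 1 cell held 93.2% of the *Ccl1* UMIs.

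Because deeper cells show a gene more often, shares were compared after each cell had been thinned to 2000 UMIs, which left out 17 wild-type and 16 knockout CD8-gated cells and 76 and 55 Treg-gated cells that were shallower. Thinned shares of wild-type CD8-gated cells were 72.8% for *Ccl5*, 40.7% for *Ccl4*, 22.7% for *Ccl3*, 21.7% for *Xcl1*, 2.06% for *Cxcl10* and 0.114% for *Ccl1*. In wild-type Treg-gated cells they were 31.7%, 11.0%, 4.20%, 1.96%, 2.57% and 0.136%. The intervals of the shares overlapped between the lineages for *Cxcl10* and for *Ccl1*, the latter on 1 CD8-gated and 2 Treg-gated cells.

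**Figure D1:**
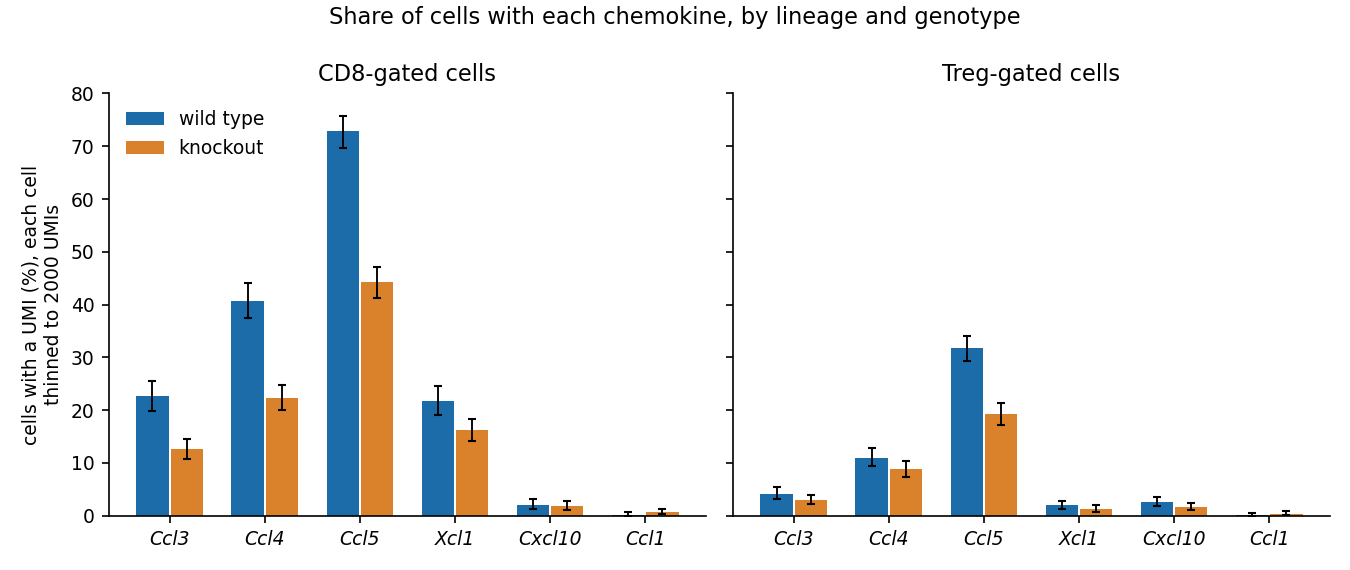
Share of cells with at least 1 UMI of each chemokine (vertical axis, percent) after each cell was thinned to 2000 UMIs, for CD8-gated (left) and Treg-gated cells (right), with blue bars for the wild-type and orange bars for the knockout library and error bars for exact binomial intervals (counting error only). The bars of *Ccl5* stand at 72.8% and 44.2% in CD8-gated and at 31.7% and 19.2% in Treg-gated cells, and those of *Cxcl10* and *Ccl1* stay below 3%.

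Within each library, 5 of the 6 chemokines were lower in Treg-gated than in CD8-gated cells by at least 1.5 times. These were all but *Cxcl10* in wild-type cells and all but *Ccl1* in knockout cells, where 8.78% and 8.39% of all genes with at least 20 UMIs were lower to that extent. The wild-type count includes *Ccl1* (44 UMIs in CD8-gated and 11 in Treg-gated cells, log2 ratio −2.34), of which 41 lay in 1 CD8-gated cell, and its ratio was 0.07 without the top cell, 0.54 with a stricter lineage gate (at least 4 UMIs of *Cd8a* and *Cd8b1* and none of *Cd4*, *Foxp3*, *Il2ra* or *Ikzf2* for CD8, and Treg-gated cells with a *Foxp3* UMI), 1.42 with 500 to 4000 genes and 2.37 without proliferating cells. The median log2 ratio of Treg over CD8 was −2.88 for the chemokines against 0.12 for all genes in the wild type, and −3.17 against 0.15 in the knockout. Other scalings (TMM and median of ratios) shifted all Treg over CD8 ratios by −0.10 and −0.11 in the wild type and by −0.16 and −0.13 in the knockout. *Xcl1* was the gene with the widest gap, 689 CPM in wild-type CD8-gated and 16.5 CPM in Treg-gated cells, a log2 ratio of −5.38 (−5.63 to −5.14), and the knockout gave −5.36. *Ccl5* was at 9921 and 544 CPM, a ratio of −4.19 (−4.23 to −4.15), and *Ccl3* at 486 and 45.8 CPM, a ratio of −3.41 (−3.56 to −3.26). For *Ccl4* the gap was the narrowest of *Ccl3*, *Ccl4* and *Ccl5*, with 1308 CPM in CD8-gated and 279 CPM in Treg-gated cells, a ratio of −2.23 (−2.30 to −2.17). *Cxcl10* was at 17.4 and 18.0 CPM in the wild type (ratio 0.05, −0.30 to 0.40), and at 16.2 and 9.94 CPM in the knockout (−0.70, −1.12 to −0.29). The 4 classes fell in the order wild-type CD8, knockout CD8, wild-type Treg, knockout Treg for *Ccl3*, *Ccl4*, *Ccl5* and *Xcl1*, with intervals of CPM that did not overlap between neighbours except for *Xcl1* in the Treg-gated cells of the 2 genotypes (16.5 and 13.7 CPM). For *Cxcl10* only knockout Treg-gated cells stood below the others.

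The level of *Ccl5* in Tregs has to be read against free RNA, since transcripts released by CD8 T cells can enter any droplet of the library. Naive-gated Tregs, which carried at least 2 UMIs of *Lef1* and *Ccr7* together and none of *Gzma*, *Gzmb*, *Gzmk*, *Nkg7*, *Cxcr6*, *Lag3*, *Pdcd1*, *Havcr2*, *Mki67*, *Top2a* or *Birc5*, served as the cells that should lack *Ccl5*. *Ccl5* was found in 27 of 105 of these wild-type cells (25.7%, 17.7 to 35.2%, median depth 3270 UMIs) and 37 of 165 in the knockout (22.4%, 16.3 to 29.6%, 3420), at 79.2 and 90.7 CPM. All Treg-gated cells were positive in 51.0% (48.5 to 53.5%) and 32.1% (29.7 to 34.6%). After thinning, the shares were 13.9% and 14.4% of naive-gated against 31.7% and 19.2% of all Treg-gated cells. All Treg-gated cells had 544 and 266 CPM, so that naive-gated cells came closer to them in the share of positive cells than in level. Over all kept cells *Ccl5* was at 4335 CPM in the wild type and 2175 CPM in the knockout. The naive-gated level was not lower in the knockout, and whether it is free RNA alone was not tested.

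Naive-gated and other Tregs differed in the number of *Ccl5* UMIs per cell. A single *Ccl5* UMI was found in 21.0% of naive-gated and 22.8% of all wild-type Treg-gated cells, and in 19.4% and 19.1% in the knockout. At 10 or more UMIs there were 0 of 105 wild-type naive-gated Tregs, which allows a share of up to 2.86% (3 cells of 105), and 1 of 165 in the knockout. Among all Treg-gated cells 128 of 1552 in the wild type (8.25%, 6.93 to 9.73%) had 10 or more, as did 57 of 1444 in the knockout (3.95%, 3.0 to 5.08%), and they held 68.7% and 65.2% of the *Ccl5* UMIs of the lineage. No *Cd8a* or *Cd8b1* UMI was present in these cells, by the gate. In the wild type, *Ikzf2* was found in 99.2% of them against 93.9% of the Treg-gated cells without a *Ccl5* UMI, and *Ctla4* in 96.9% against 92.9%. *Ikzf2* is itself a gene of the gate, and wild-type CD8-gated cells had *Ikzf2* in 40.3% and *Ctla4* in 65.1%. The presence of these genes thus does not by itself tell Tregs from CD8 T cells. The Treg-gated cells with 10 or more *Ccl5* UMIs also carried *Itgae* (CD103, an integrin of tissue T cells) in 74.2% against 32.9%, *Lag3* in 88.3% against 47.5% and *Nkg7*, a cytotoxic granule gene, in 81.2% against 33.2%, at median depths of 4502 and 3812 UMIs. The knockout gave 70.2% against 26.8% for *Itgae* and 87.7% against 27.8% for *Nkg7*. Both knockout Treg-gated cells with the NK marker *Ncr1* (11 UMIs) were among these 57, which had 170.0 CPM of *Cd7*, a gene of T and NK cells, against 24.0 CPM in those without *Ccl5*, and the part of NK cells in the *Ccl5* level was not tested.

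**Figure D2:**
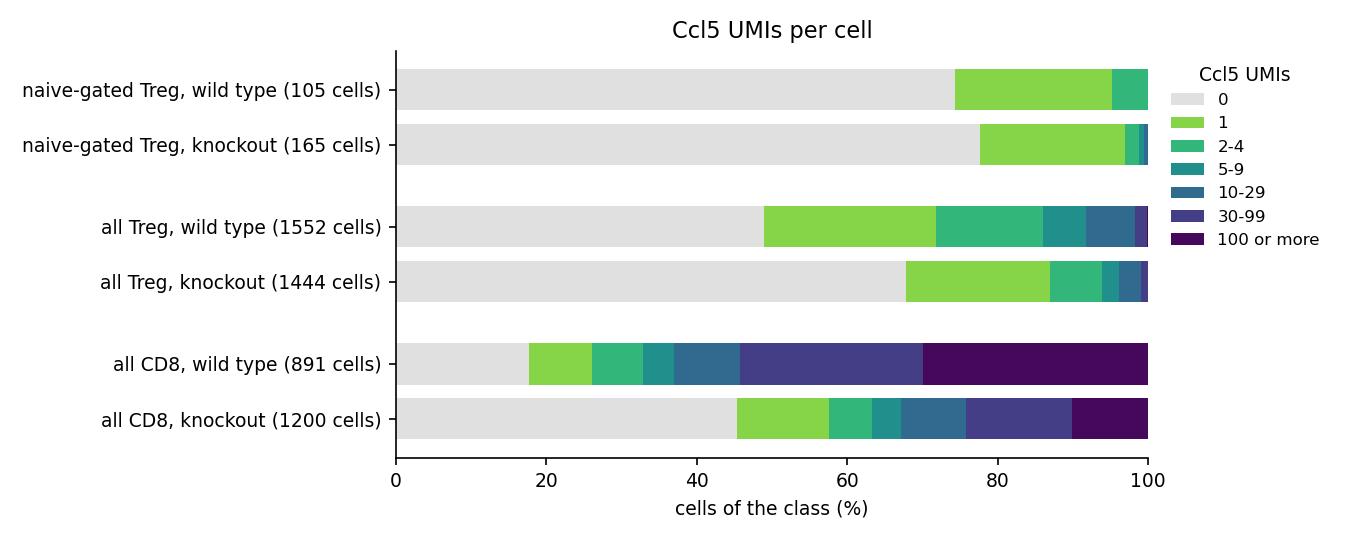
Cells by their number of *Ccl5* UMIs (colour, from 0 in grey to 100 or more in dark purple) as percent of the cells of each class (horizontal axis), for naive-gated Tregs, all Treg-gated cells and all CD8-gated cells of both libraries. The light green band of 1 UMI is about as wide in naive-gated Tregs (21.0% and 19.4%) as in all Tregs (22.8% and 19.1%), whereas bands of 10 or more UMIs hold 8.25% and 3.95% of all Tregs and 63.1% and 32.9% of CD8-gated cells.

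A second comparison used cells with a *Foxp3* UMI chosen without the condition on *Cd8a* and *Cd8b1*, 230 wild-type and 320 knockout cells. Free RNA of CD8 T cells would keep the genes of its source in 1 ratio, so the level of each gene in these cells was given as a percentage of its level in CD8-gated cells of the same library. *Cd8a* reached 1.75% (1.18 to 2.50%) in the wild type and *Cd8b1* 3.58% (2.37 to 5.18%). *Ccl5* reached 5.43% (5.08 to 5.79%), *Ccl3* 8.0% (6.12 to 10.2%) and *Ccl4* 25.4% (23.3 to 27.7%), all above *Cd8a*, although the interval of *Ccl5* overlapped that of *Cd8b1*. *Xcl1* reached 1.61% (0.955 to 2.56%), which lay within the interval of *Cd8a*. In the knockout these values were 2.11% for *Cd8a*, 2.88% for *Cd8b1*, 5.05% for *Ccl5*, 6.11% for *Ccl3*, 29.1% for *Ccl4* and 3.83% for *Xcl1*. *Cd8a* and *Cd8b1* define the CD8 gate, which raises their level in CD8-gated cells and so lowers their percentages. Among granule genes outside that gate, *Gzma* reached 7.32% (2.92 to 15.2%) in the wild type and 1.39% (0.377 to 3.56%) in the knockout. *Gzmk* reached 18.0% and 45.4%, *Nkg7* 22.0% and 22.5%, and *Gzmb* 59.6% and 57.7%. The *Foxp3*+ cells included 25 wild-type and 39 knockout cells with a *Cd8a* or *Cd8b1* UMI. Without them *Ccl4* was at 144 rather than 333 CPM and *Ccl3* at 23.7 rather than 38.9 CPM in wild-type cells, whereas knockout *Ccl4* was at 293 rather than 321 CPM and *Ccl3* at 14.3 rather than 21.1 CPM. *Cxcl10* stood at 74.5% (44.4 to 119%) and 50.3% (28.3 to 83.5%). *Xcl1* in Tregs was thus not distinguished from *Cd8a* in the wild type, and 29 of the knockout *Xcl1* UMIs lay in 1 cell.

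The knockout was compared with the wild type within each lineage. In CD8-gated cells 1 of the 6 chemokines was lower by at least 1.5 times, *Ccl5*, where 8.20% of 11083 genes were, and 1 was higher, *Ccl1*, where 13.7% were. *Ccl5* stood at 9921 CPM (9847 to 9995) in the wild type against 4416 CPM (4369.9 to 4463) in the knockout, a log2 ratio of −1.17 (−1.19 to −1.15). Its positive cells were fewer, 54.7% against 82.4%, with a difference of −28.6 percentage points after thinning (−32.6 to −24.4), and they held fewer UMIs, with medians of 20 and 65. For *Ccl4*, *Ccl3* and *Xcl1* the share of positive cells was lower, while the median UMIs per positive cell were alike. Thinned shares differed by −18.4 points for *Ccl4* (−22.4 to −14.4), −10.1 for *Ccl3* (−13.5 to −6.74) and −5.52 for *Xcl1* (−9.0 to −2.11), while a positive cell held a median of 4.5 against 5 *Ccl4* UMIs, 3 against 3 *Ccl3* UMIs and 4 against 4 *Xcl1* UMIs. The means were 22.4 against 18.9 for *Ccl4*, 11.3 against 10.7 for *Ccl3* and 15.7 against 15.4 for *Xcl1*. Cells with 100 or more *Ccl4* UMIs held 49.4% of its UMIs in the knockout and 28.3% in the wild type. Summed over the lineage, *Ccl3* was at 345 against 486 CPM (log2 ratio −0.50, −0.57 to −0.42), *Ccl4* at 1103 against 1308 CPM (−0.25, −0.29 to −0.20) and *Xcl1* at 563 against 689 CPM (−0.29, −0.35 to −0.23), each beyond counting error but under 1.5 times. These intervals leave out the spread between cells, and 50% of the *Ccl4* UMIs lay in 44 wild-type and 21 knockout cells. For *Xcl1*, 50% of the UMIs lay in 20 and 22 cells. *Cxcl10*, at 16.2 and 17.4 CPM, did not differ beyond counting error (−0.10, −0.47 to 0.27). The median log2 ratio of the 6 genes was −0.27, against 0.04 for all genes.

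The libraries differed in the share of cells with naive genes, which moved with these values. The naive gate named above took in few CD8-gated cells, because *Nkg7* was found in 97.2% and 94.4% of them, so the gate was also used without *Nkg7*, a choice made after seeing the data. It then held 107 of 891 wild-type (12.0%) and 393 of 1200 knockout CD8-gated cells (32.8%). In the CD8-gated cells outside it, *Ccl4* was at 1420.2 CPM in the wild type against 1477 CPM in the knockout (log2 ratio 0.06, 0.01 to 0.10). *Xcl1* was at 747 CPM in both (0.00, −0.06 to 0.06), so that the lower CPM of both genes was no longer seen. The thinned share of *Ccl4* stayed lower there, at 32.1% in the knockout (28.8 to 35.4%) against 45.8% in the wild type (42.2 to 49.4%). For *Xcl1* these shares were 23.2% and 24.4%. *Ccl3* was at 529 and 462 CPM there (−0.19, −0.27 to −0.12). *Ccl5* kept a difference, with 10737 and 5822 CPM (−0.88, −0.90 to −0.86), while the values inside the gate, 518 and 333 CPM (−0.64, −0.84 to −0.43), rested on few cells, since 4 of the 107 wild-type cells held 73.1% of the UMIs. In the gate with *Nkg7*, the 8 wild-type and 26 knockout cells were at 175 and 433 CPM (1.31, 0.09 to 2.82), with 47 of the 52 knockout UMIs in 1 cell. *Cxcl10* was at 18.3 and 19.0 CPM outside the gate.

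In Treg-gated cells 3 of the 6 chemokines were lower in the knockout by at least 1.5 times, where 3.62% of 11428 genes were, and 1 was higher, where 6.93% were. *Ccl3* was at 21.1 CPM (18.1 to 24.5) against 45.8 CPM (41.4 to 50.5), a log2 ratio of −1.12 (−1.38 to −0.86). 10 wild-type and 2 knockout Tregs with 10 or more *Ccl3* UMIs held 56.3% and 32.0% of its UMIs, and the interval of the difference in thinned share included 0 (−1.25 points, −2.63 to 0.124). *Ccl5* was at 266 against 544 CPM (−1.04, −1.11 to −0.96), and its thinned share differed by −12.5 points (−15.6 to −9.31), with naive-gated Tregs at 90.7 and 79.2 CPM. *Cxcl10* was at 9.94 against 18.0 CPM (−0.86, −1.26 to −0.46), while the interval of the difference in thinned share included 0 (−0.991 points, −2.07 to 0.0699). *Ccl4* was at 222 against 279 CPM (−0.33, −0.42 to −0.24), and *Xcl1* at 13.7 against 16.5 CPM (−0.27, −0.64 to 0.10). The median over the 6 genes was −0.59, against 0.04 for all genes.

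The direction of *Ccl4* in Tregs depended on the gate. In the 205 wild-type and 281 knockout Treg-gated cells with a *Foxp3* UMI, *Ccl4* was at 144 CPM in the wild type against 293 CPM in the knockout, a ratio of 1.02 (0.78 to 1.27), with 19.0% and 17.8% of the cells positive and 15.9% and 19.6% of the UMIs in 1 cell. With the *Foxp3*+ cells that also had a *Cd8a* or *Cd8b1* UMI, *Ccl4* was at 333 and 321 CPM, so the higher level in the knockout was seen after those 25 and 39 cells had been left out. *Ccl5* in the 205 and 281 cells was at 572 and 226 CPM (−1.34). Naive-gated cells, with *Nkg7* left out of the gate, were 8.31% of Treg-gated cells in the wild type against 13.6% in the knockout, and outside the gate the ratios were −1.09 for *Ccl3*, −0.31 for *Ccl4*, −1.02 for *Ccl5*, −0.61 for *Xcl1* and −0.90 for *Cxcl10*. The *Xcl1* ratio (−1.02 to −0.21) turns on 1 knockout cell inside the gate, which held 29 of the 30 *Xcl1* UMIs there.

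**Figure D3:**
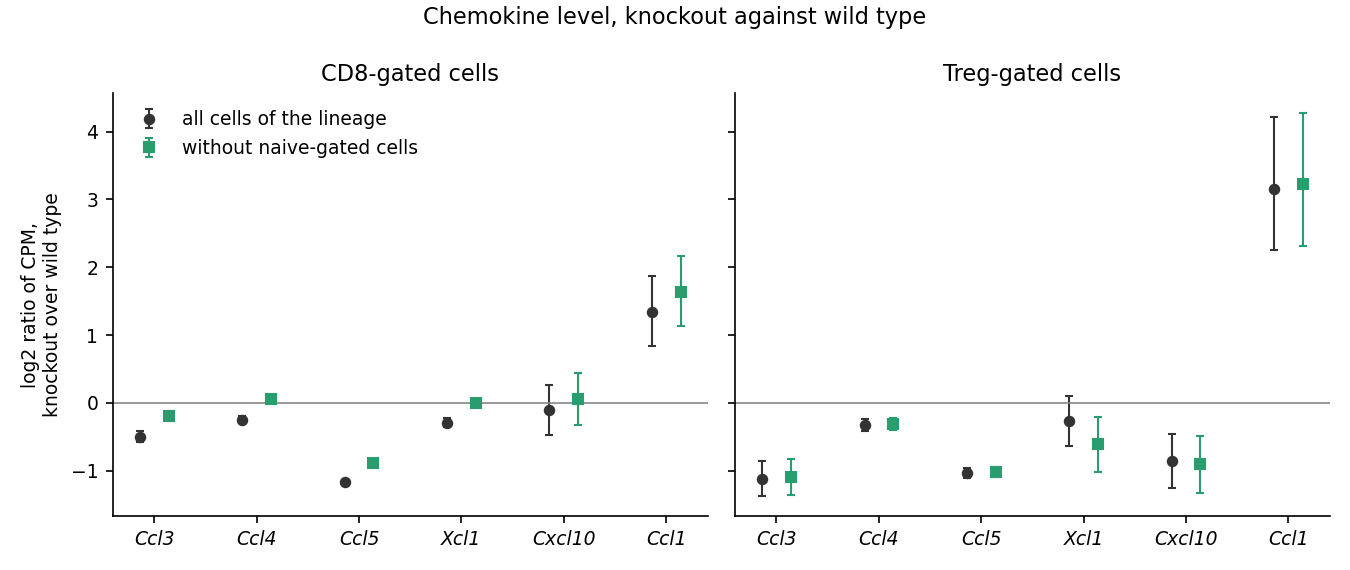
Log2 ratio of CPM, knockout over wild type (vertical axis), for each chemokine in CD8-gated (left) and Treg-gated cells (right), over all cells of the lineage (dark circles) and without cells in the naive gate that leaves out *Nkg7* (green squares), with exact intervals for counting error. In CD8-gated cells without naive-gated cells *Ccl4* (0.06) and *Xcl1* (0.00) lie at the line of no difference and *Ccl5* stays at −0.88, whereas in Treg-gated cells both symbols of *Ccl5* lie near −1.

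*Ccl1* was the gene found in the fewest cells. In CD8-gated cells it had 44 UMIs in 4 wild-type cells and 126 UMIs in 16 knockout cells, at 6.27 and 15.9 CPM (log2 ratio 1.34, 0.84 to 1.87), and in Treg-gated cells 11 UMIs in 4 cells and 90 UMIs in 9 cells, at 1.24 and 11.0 CPM (3.16, 2.25 to 4.21). The order of levels was knockout CD8, knockout Treg, wild-type CD8 and wild-type Treg, and the intervals of the knockout classes overlapped. In every class except knockout CD8, 1 cell held most of the UMIs. 1 wild-type CD8-gated cell held 41 of the 44 UMIs, and 1 knockout Treg-gated cell held 81 of the 90, a cell with 21 *Ikzf2* and 12 *Ctla4* UMIs and no *Cd8a* or *Cd8b1* UMI. Without the top cell of each class, 3 wild-type and 89 knockout UMIs were left in CD8-gated cells (log2 ratio 4.72, 3.12 to 7.02). In Treg-gated cells 4 and 9 UMIs were left, too few for the limit of 20 (1.29, −0.55 to 3.45), and the Treg ratio was −0.38 (−4.16 to 3.41) among cells with a *Foxp3* UMI, where each library had 2 UMIs. The thinned shares of *Ccl1* in CD8-gated cells, 0.114% and 0.676%, differed by 0.561 points (−0.0653 to 1.22), within counting error. The *Ccl1*+ cells of the knockout also carried other chemokines: of 8 positive CD8-gated cells after thinning, 7 had *Ccl4*, 7 had *Xcl1* and 6 had *Ccl3*.

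*Ccl3*, *Ccl4* and *Ccl5* occurred together. *Xcl1* was found with them about as often as the shares of the genes give in the wild type, and more often than that in the knockout. Of thinned wild-type CD8-gated cells with *Ccl3*, 83.8% also had *Ccl4* and 99% *Ccl5*, against 40.7% and 72.8% of all cells, while 19.2% had *Xcl1*, against 21.7% of all. In the knockout, 81.9% of *Ccl3*+ cells had *Ccl4*, 92.6% *Ccl5* and 28.2% *Xcl1*, against 22.3%, 44.2% and 16.2% of all cells. At 10 or more UMIs without thinning, 84 of 94 *Ccl3*-high wild-type cells were also *Ccl4*-high, 24 cells were high for both *Ccl4* (185 cells) and *Xcl1* (93 cells), and 11 for both *Ccl3* and *Xcl1*. In the knockout these numbers were 63 of 65, 29 (142 and 98 cells) and 13. *Ccl4* and *Xcl1* shared 9.73% of thinned wild-type cells, where the product of their shares is 8.85%, and 7.09% of knockout cells, where it is 3.62%. After thinning, 20.8% of CD8-gated cells had no member in the wild type, against 48.0% in the knockout, and for Treg-gated cells these shares were 58.0% and 72.2%. At least 1 cell in each CD8-gated class had 5 members, and none had all 6.

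Cells rich in *Ccl4* and cells rich in *Xcl1* differed in their other genes. Among wild-type CD8-gated cells with 10 or more *Ccl4* UMIs, *Ifng* was found in 76.8% against 17.5% of cells without *Ccl4*, *Gzmk*, a granzyme, in 71.9% against 18.7%, and *Havcr2*, a checkpoint receptor, in 49.7% against 3.2%. *Tcf7*, a gene of less differentiated T cells, was found in 8.65% against 58.9%. Among wild-type cells with 10 or more *Xcl1* UMIs, *Cd160*, another surface receptor of CD8 T cells, was found in 79.6% against 17.7% of cells without *Xcl1* and *Tnfrsf9* in 68.8% against 18.7%, whereas *Gzmk* (37.6% against 43.3%), *Havcr2* (12.9% against 19.4%) and *Ifng* (43.0% against 37.1%) were found about as often in both. *Tcf7* was found in 48.4% of *Xcl1*-high cells against 33.8%. The high cells were deeper, with medians of 8005 against 5626 UMIs for *Ccl4* and 9537 against 5603 for *Xcl1*, and the part of depth in these shares was not tested. In the knockout, *Xcl1*-high cells again carried *Cd160* (86.7% against 13.9%) and *Tnfrsf9* counts (52.0% against 6.99%), and here also *Ifng* (67.3% against 20.5%). Both kinds of cell carried *Pdcd1*, in 91.4% (*Ccl4*-high) and 90.3% (*Xcl1*-high) of wild-type cells.

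**Figure D4:**
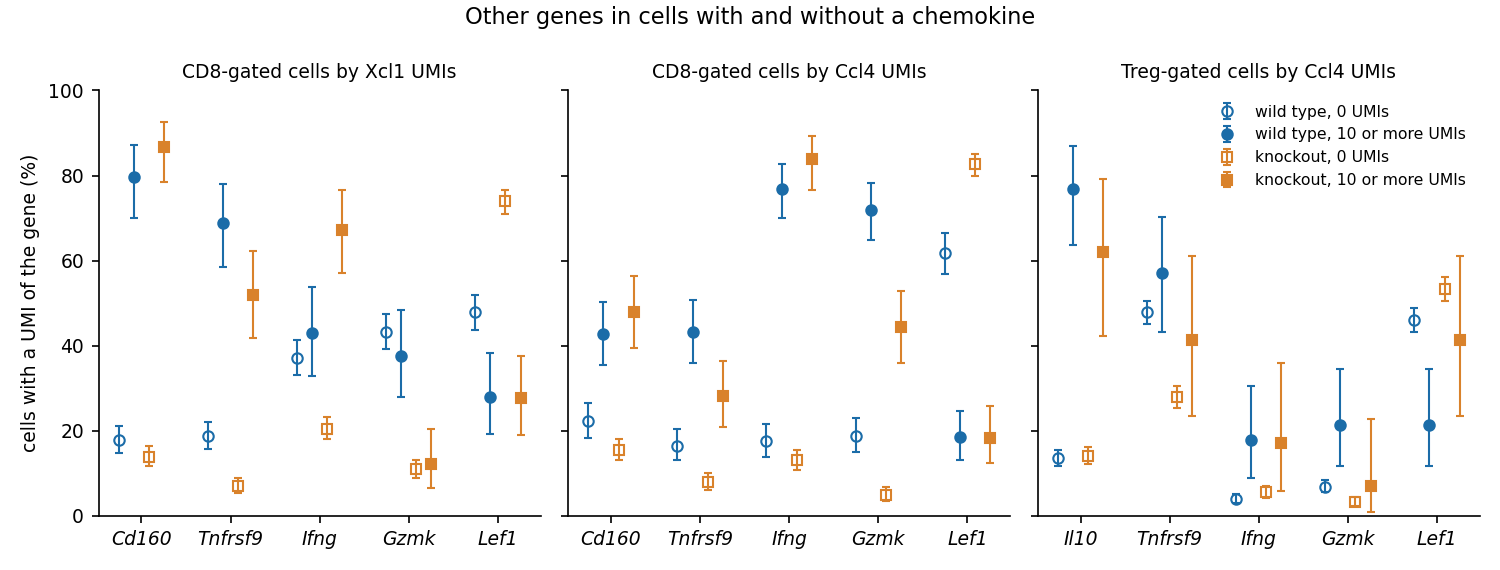
Share of cells with a UMI of each gene on the horizontal axis (vertical axis, percent), for CD8-gated cells by *Xcl1* UMIs (left), CD8-gated cells by *Ccl4* UMIs (middle) and Treg-gated cells by *Ccl4* UMIs (right), with open symbols for cells with 0 and filled symbols for cells with 10 or more UMIs, in the wild type (blue circles) and the knockout (orange squares), and exact binomial intervals. *Cd160* stands at 79.6% and 86.7% in *Xcl1*-high cells and at 42.7% and 47.9% in *Ccl4*-high CD8-gated cells, and *Il10* at 76.8% and 62.1% in *Ccl4*-high Tregs.

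The genes most like each member across single cells pointed the same way, with correlations that are descriptions of cells of 1 library and share its depth. Across 891 wild-type and 1200 knockout CD8-gated cells and 7882 genes, *Ccl3* and *Ccl4* were each the gene most like the other (Pearson r 0.76 in wild-type and 0.79 in knockout cells). *Ccl3* was followed by *Ifng* (0.50 and 0.56), and *Ccl5* was most like *Nkg7* (0.67 and 0.64) and *Ccl4* (0.60 and 0.65). *Xcl1* was most like *Cd160* (0.51 and 0.54) and *Tnfrsf9* (0.42 and 0.39). In Treg-gated cells *Ccl4* was most like *Il10* (0.42 and 0.29), the gene of an immunosuppressive cytokine, and *Ccl3* (0.42 and 0.43), and *Ccl5* was most like *Nkg7* (0.33 and 0.35). No gene reached 0.2 in both libraries for *Cxcl10* or *Ccl1* in either class, or for *Xcl1* in Tregs.

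*Ccl4* in Tregs was concentrated in few cells. Of Treg-gated cells, 18.7% in the wild-type library and 14.8% in the other were positive, with a median of 1 UMI, and 50% of its UMIs lay in 19 and 10 cells. *Il10* was found in 76.8% of the 56 wild-type Tregs with 10 or more *Ccl4* UMIs against 13.5% of those without, and in 62.1% of 29 against 14.1% in the knockout. *Havcr2* was found in 37.5% against 6.18% of wild-type Tregs and *Lef1*, a gene of naive T cells, in 21.4% against 46.0%, at median depths of 4727 and 4074 UMIs.

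Cells were next grouped by other genes that mark recent signals, in gates that overlap. The TCR signal gate (at least 2 UMIs of *Egr2*, *Irf4*, *Nr4a1* and *Nr4a3*) held 129 wild-type and 167 knockout CD8-gated cells and 291 and 245 Treg-gated cells. Inside it, wild-type CD8-gated cells had 3281 CPM of *Ccl4* against 854 CPM outside (log2 ratio 1.94, 1.88 to 2.0), 1820 CPM of *Xcl1* against 429 (2.08, 2.0 to 2.17) and 1111 CPM of *Ccl3* against 343 (1.70, 1.60 to 1.80). *Ccl5*, by contrast, was at 9152 CPM inside and 10098 CPM outside (−0.14, −0.17 to −0.11). In the knockout the ratios were 2.52 for *Ccl4*, 2.44 for *Xcl1*, 1.75 for *Ccl3* and 0.02 for *Ccl5* (−0.02 to 0.06). Tregs gave the same pattern for *Ccl4*, at 804 against 106 CPM in wild-type (2.93, 2.80 to 3.06) and 519 against 127 CPM in knockout cells (2.03, 1.90 to 2.17), and for *Ccl5*, with 0.17 and 0.22. The *Ccl5* ratio in wild-type Tregs turned to −0.18 when the gate required 1 more UMI. Gated cells were deeper than the rest (8801 against 5915 UMIs in wild-type CD8-gated cells), but thinned shares moved the same way, 67.4% against 36.1% for *Ccl4* and 41.9% against 18.3% for *Xcl1*.

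The difference between genotypes was also read inside this gate. Among CD8-gated cells in the TCR signal gate, *Ccl4* was at 3266 CPM in the knockout and 3281 CPM in the wild type (log2 ratio −0.01) and *Xcl1* at 1627 and 1820 CPM (−0.16), whereas *Ccl3* was at 790.4 and 1111 CPM (−0.49) and *Ccl5* at 4466 and 9152 CPM (−1.03). Outside it the ratios were −0.58 for *Ccl4*, −0.51 for *Xcl1*, −0.54 for *Ccl3* and −1.20 for *Ccl5*. In Treg-gated cells *Ccl4* was lower in the knockout inside the gate (519 against 804 CPM, −0.63, −0.74 to −0.52) and higher outside it (127 against 106 CPM, 0.26, 0.11 to 0.41).

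*Cxcl10* followed the interferon genes. The gate of at least 3 UMIs of *Isg15*, *Ifit1*, *Ifit3* and *Irf7* held 124 wild-type and 65 knockout Tregs, in which *Cxcl10* was at 93.9 CPM against 10.5 CPM outside (log2 ratio 3.16, 2.69 to 3.63) and 42.0 against 7.95 CPM (2.40, 1.60 to 3.15). In 55 wild-type and 67 knockout CD8-gated cells the ratios were 1.24 (0.40 to 1.98) and 1.61 (0.89 to 2.27). The thinned shares of *Cxcl10* moved the same way in Tregs (10.6% against 1.85% in wild-type cells) and in wild-type CD8-gated cells (3.64% against 1.95%), but not in knockout CD8-gated cells (1.49% against 1.79%). *Ccl3*, *Ccl4* and *Xcl1* were lower inside this gate than outside in all 4 classes, though for *Ccl3* and *Xcl1* in knockout Tregs the interval included 0. In wild-type Tregs *Ccl4* was at 121 CPM inside against 294 CPM outside (−1.28, −1.58 to −0.98), and in wild-type CD8-gated cells *Xcl1* was at 175 against 725 CPM (−2.05, −2.39 to −1.73). The sign of *Ccl5* in this gate changed in 3 of 4 classes when the gate required 1 more UMI. The gate held 7.99% of the Tregs in the wild-type library and 4.5% in the other, and *Cxcl10* was also lower inside it in the knockout (−1.16, −1.95 to −0.43). The part of the smaller gate in the lower *Cxcl10* level of knockout Tregs was not tested.

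The cytotoxic gate (at least 2 UMIs of *Gzma*, *Gzmb*, *Gzmk* and *Nkg7*) held 93.3% of wild-type and 87.1% of knockout CD8-gated cells. *Ccl3*, *Ccl4*, *Ccl5* and *Xcl1* were all higher inside it, with log2 ratios of 4.87, 4.03, 3.75 and 4.10 in the wild type and 4.77, 3.72, 4.24 and 5.48 in the knockout. 10312 CPM of *Ccl5* inside stood against 768 outside in the wild type. The gate held 36.1% and 25.6% of Treg-gated cells, with ratios of 2.81 and 2.75 for *Ccl3*, 2.49 and 2.60 for *Ccl4* and 1.46 and 2.38 for *Ccl5*. Inside the gate the Tregs of the 2 genotypes had 492 and 505 CPM of *Ccl4* (knockout over wild type 0.04, −0.06 to 0.14) and 820.4 and 579.5 CPM of *Ccl5* (−0.50, −0.59 to −0.41). A gate on *Lag3*, *Itgae* and *Cxcr6*, genes of differentiated tissue Tregs (at least 2 UMIs), held 54.3% and 42.6% of Treg-gated cells and showed *Ccl4* at 413 against 40.6 CPM in the wild type (3.35) and *Ccl3* at 66.6 against 8.74 CPM (2.93). *Xcl1* was lower inside that gate in wild-type Tregs (12.5 against 23.7 CPM, −0.93), and in the knockout it was at 14.6 against 12.8 CPM (0.19, −0.37 to 0.76). Outside that gate knockout Tregs had more *Ccl4* than wild-type ones (80.6 against 40.6 CPM, 0.99, 0.69 to 1.30), and inside it less (352 against 413 CPM, −0.23, −0.32 to −0.14). Proliferating wild-type Tregs (at least 3 UMIs of *Mki67*, *Top2a*, *Birc5*, *Cdk1* and *Ube2c*) had less *Ccl4*, 77.1 against 342 CPM (−2.15, −2.39 to −1.92), and knockout ones 201 against 229 CPM (−0.19, −0.35 to −0.04). Among CD8-gated cells, of which 20.4% and 8.08% were in this gate, *Ccl3* was lower inside it in the wild type (443 against 513 CPM, −0.21), whereas it was higher in the knockout (642 against 280.1 CPM, 1.20). *Tnfrsf9*+ cells of the wild type, which have the receptor that the knockout lacks, had 1471 CPM of *Xcl1* against 223 CPM among CD8-gated cells (2.72, 2.62 to 2.82) and 8839.8 against 10566 CPM of *Ccl5* (−0.26, −0.28 to −0.23). The last gate took cells with at least 1 UMI of *Tbx21* and *Cxcr3*, genes of type 1 T cells. In knockout CD8-gated cells *Ccl4* (1581 against 609 CPM, 1.38), *Xcl1* (829 against 288 CPM, 1.53) and *Ccl5* (6041 against 2736 CPM, 1.14) were higher inside it. In wild-type CD8-gated cells the same ratios were 0.05, 0.17 and −0.08.

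**Figure D5:**
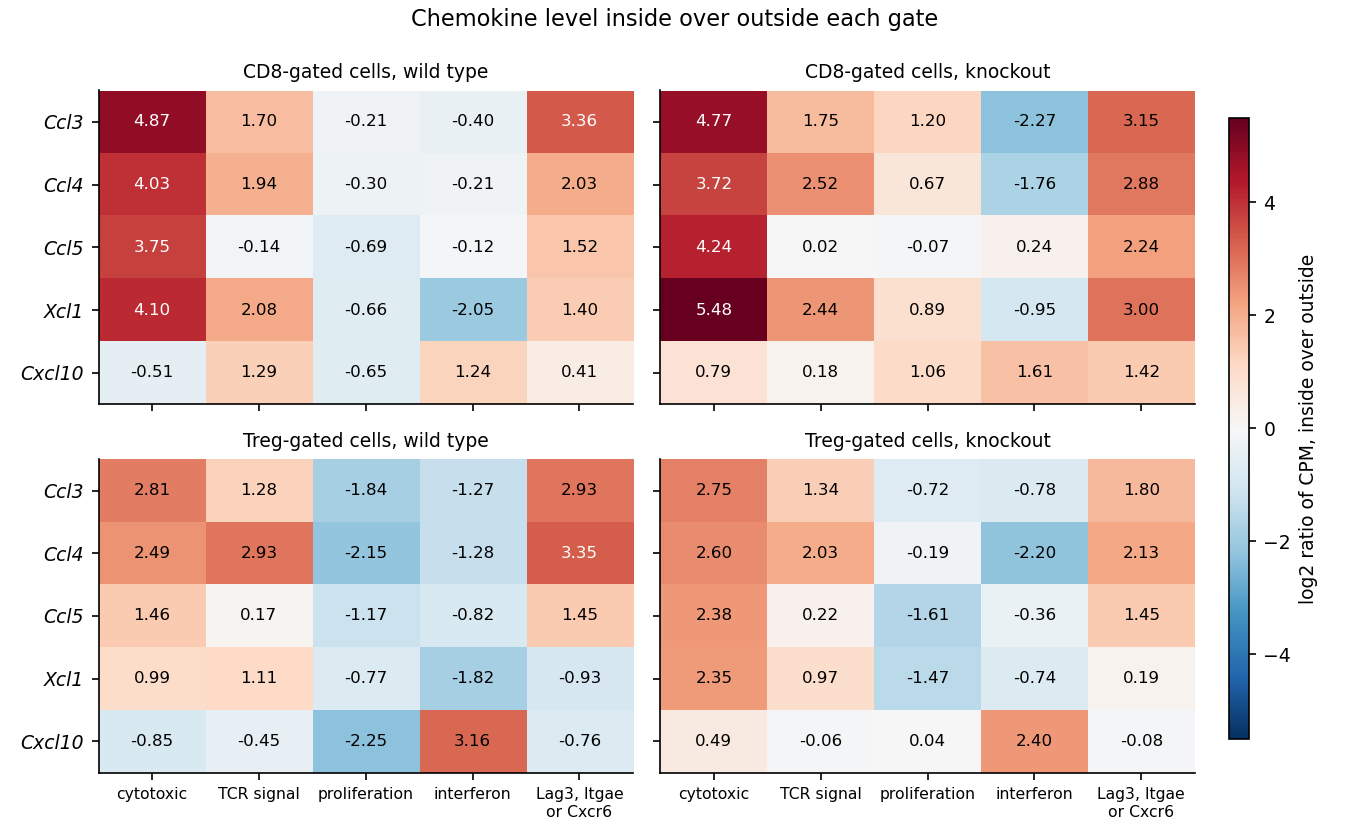
Log2 ratio of CPM inside over outside 5 gates (columns) for 5 chemokines (rows) in CD8-gated (top) and Treg-gated cells (bottom) of the wild type (left) and the knockout (right), with red for higher inside, blue for lower inside and the value printed in each field. The TCR signal column is red for *Ccl3*, *Ccl4* and *Xcl1* and near white for *Ccl5* in all 4 panels, and *Cxcl10* is the red row of the interferon column, from 1.24 to 3.16.

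Of the 32 other chemokine ligands in the matrices, 3 had at least 20 UMIs over both libraries: *Ccl25*, *Ccl27a* and *Ccl9*. *Ccl25* lay between 11.4 and 15.7 CPM in the 4 classes, and *Ccl9* had 15 UMIs in wild-type and 4 in knockout CD8-gated cells. None of those that could be compared within a lineage passed 1.5 times. Among 5 receptors of the members, *Cxcr3*, *Ccr8* and *Ccr3* had at least 20 UMIs. *Cxcr3*, the receptor of *Cxcl10*, was at 68.7 CPM in knockout against 97.4 CPM in wild-type CD8-gated cells (log2 ratio −0.50, −0.67 to −0.34) and at 145 against 179 CPM in Tregs (−0.30, −0.41 to −0.19). *Ccr8*, the receptor of *Ccl1*, was at 15.6 and 18.9 CPM in wild-type and knockout Tregs and at 1.28 and 2.28 CPM in CD8-gated cells. In CD8-gated cells 1 of 2 receptors was higher in the knockout by at least 1.5 times (*Ccr8*, on 27 UMIs, with an interval that spans 0) and 0 lower, and in Tregs 0 of 3 was either.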

How the data were processed

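Single-cell 3′ libraries (10x Genomics chemistry version 2) of islet T cells were analysed for 2 samples, 1 wild type and 1 knockout. The authors deposited UMI counts per gene and barcode, made with Cell Ranger 7.0.0 on mm10 according to the submitters' processing notes. The counting of intronic reads is not given in the sources used here. Barcodes were kept at 200 to 5000 genes and no more than 20% of UMIs from mitochondrial genes, lineages were gated on raw UMIs, and UMIs were summed per class and scaled to CPM. Shares have exact Clopper-Pearson intervals, levels exact Poisson intervals, log2 ratios exact conditional intervals and differences of shares Newcombe intervals, all at 95%. Without replicates, a gene with at least 20 UMIs was counted as past the limit at 1.5-fold. The members, gates and gene lists were chosen with earlier results of these data known. Named genes are the members, chemokine ligands and receptors with at least 20 UMIs, up to 5 genes most like a member (Pearson r of at least 0.2 in both libraries, among genes in at least 5% of cells), and genes of the gates and marker lists. Other genes shown in cells rich in a member were chosen after their values were seen. Alternatives were TMM and median-of-ratios scaling, other filters and gates, thinning to 1000 or 3000 UMIs, and left-out cells. Leaving out naive-gated cells by a gate without *Nkg7*, and cells with a barcode found in both libraries, was added after seeing the data. The naive gate rests on *Lef1* and *Ccr7*, since 1 further gene of the planned gate is not reported here, and neither is 1 receptor. Interval steps were tested on simulated data. Tools were Python 3.11.15, numpy 2.4.6, scipy 1.17.1, pandas 2.3.3, matplotlib 3.10.9, R 4.3.3 and edgeR 4.0.16 (scaling factors only). Gene positions came from GENCODE vM21.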

Additional observations from a re-analysis of the deposited data

Results flagged for a closer look

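*Ccl5* was also measured in cells that the comparisons did not use, at levels above what a count of 0 allows there (at most 1.72 CPM). Cells with more than 5000 genes, 65 wild-type and 55 knockout barcodes, had 1339.8 and 590.3 CPM. Kept cells in neither lineage, 271 in each library, had 1366 and 946 CPM, and 147 and 136 of them carried UMIs of both lineages.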

How the results depend on the processing

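No paired analysis was possible because each genotype has 1 library. Of 12 log2 ratios between genotypes, 10 had an interval without 0, and 7 of these 10 kept their direction under all 12 alternatives; of 12 ratios of Treg over CD8, 11 had such an interval and 8 of these kept it. The *Ccl5* ratio between genotypes (−1.17 in CD8-gated cells) was −1.23 with TMM, −1.20 with median of ratios, −1.28 with 500 to 4000 genes, −1.47 with a stricter lineage gate, −1.38 without proliferation-gated cells, −1.42 without cells carrying a UMI of the myeloid, B or NK lists, −1.26 as a mean over cells and −0.88 without naive-gated cells (gate without *Nkg7*), and in Tregs (−1.04) it was −1.34, −0.96 and −0.67 with the stricter gate, without proliferation-gated cells and without marker-list cells. Leaving out marker-list cells kept 290 of 891 wild-type and 523 of 1200 knockout CD8-gated cells, and 474 of 1552 and 509 of 1444 Treg-gated cells. *Cst3* of these lists was alone found in 51.5 to 68.8% of a class, so this setting removes far more than foreign cells. The *Ccl5* ratio of Treg over CD8 in the wild type (−4.19) was −4.29 with either scaling, −4.25 with 500 to 4000 genes, −4.12 unfiltered, −4.32 with the stricter gate, −4.14 without naive-gated cells, −4.23 with the naive gate without *Nkg7*, −4.41 without marker-list cells and −4.11 as a mean over cells. In the knockout (−4.06) it was −4.21 with TMM, −4.19 with median of ratios, −3.98 with 500 to 4000 genes, −4.19 with the stricter gate, −3.78 without proliferation-gated cells, −3.65 without marker-list cells, −3.90 as a mean over cells and −4.37 with the naive gate without *Nkg7*. Members lower by 1.5 times in knockout CD8-gated cells numbered 2 with 500 to 4000 genes and 3 with the stricter gate, without proliferation-gated or without marker-list cells. Members higher numbered 0 in CD8-gated cells without marker-list cells, and in Tregs 2 with the stricter gate and 0 without marker-list cells or without the top cell. The share of all genes past the limit was not counted under these settings, so these counts have no background to be read against. The *Ccl5* share of naive-gated Tregs was 4.76% and 3.03% at 2 or more UMIs and 7.62% and 7.93% thinned to 1000 UMIs, and in the wild type 36.4% with the stricter lineage gate and 25% thinned to 3000 UMIs. These ratios reversed. Without naive-gated cells (gate without *Nkg7*), *Ccl4* in CD8-gated cells was 0.06, while *Xcl1* came to 0.00. Of ratios whose interval included 0, *Xcl1* in Tregs turned to 0.75 with the stricter gate, *Cxcl10* in CD8-gated cells to 0.18 unfiltered and 0.06 without naive-gated cells (gate without *Nkg7*), and wild-type *Cxcl10* for Treg over CD8 to between −0.43 and −0.01 under 6 alternatives. With the stricter gate, *Ccl4* in Tregs was 1.02 and *Ccl1* −0.38, and without marker-list cells *Ccl1* was −1.95. For Treg over CD8, *Ccl1* in the wild type was 1.42 with 500 to 4000 genes, 0.54 with the stricter gate, 2.37 without proliferation-gated cells and 0.07 without the top cell, *Ccl1* in the knockout was 0.17 without proliferation-gated and 1.45 without marker-list cells, and *Cxcl10* in the knockout was 0.04 without marker-list cells. With each gate limit raised by 1, *Ccl5* was −0.18 for TCR signal in wild-type Tregs and 0.13, −1.02 and 0.16 for interferon in wild-type CD8-gated, knockout CD8-gated and knockout Treg-gated cells. In the gate on *Tbx21* and *Cxcr3*, *Ccl3* was −0.01 in wild-type and *Ccl1* −0.02 in knockout CD8-gated cells, *Ccl4* 0.16 in wild-type and *Xcl1* −0.50 in knockout Tregs, and in the *Tnfrsf9* gate *Ccl3* was 0.00 in wild-type Tregs. The cause was not tested. Depth limits *Ccl1*, with 11 UMIs in wild-type Tregs, and the shares of *Cxcl10*.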
